A study of Homo sapiens with 12 samples.

Results

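The genes described here are 43 splicing factors of the SR and hnRNP families and their close partners, read in PC9 cells that survived or grew out under the EGFR inhibitor erlotinib. They were chosen by name: 11 SR proteins, 5 SR-related proteins, 7 hnRNPs of the A/B and D type, 12 other hnRNPs, 3 PTB proteins, 3 proteins that recognise the 3' splice site and the kinases CLK1 and CLK4. Each of the 43 symbols matched 1 of the 62754 gene identifiers in the count table, and all 43 passed the filter on low counts. PC9 is a human lung adenocarcinoma line with an activating EGFR mutation, and the study used a subclonal PC9 line. The 12 libraries of polyadenylated RNA formed 4 groups of 3. Cells with wild-type TDP1 were sampled without drug (untreated WT), at 7 days of 1 µM erlotinib (DTC, for drug-tolerant cells) and at 28 days of the same dose (DTEC, for drug-tolerant expanded cells), and the TDP1 knockout line KO2 (KO) was sampled without drug. TDP1 is the tyrosyl-DNA phosphodiesterase that removes trapped topoisomerase I from DNA. All groups were PC9 cells of batch 1, KO2 was a single knockout line, and it was sampled only without drug. The replicate cultures were split from a common flask and then grown apart, so the p-values below measure the spread between such cultures and not between separately derived lines.

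SR proteins bind exonic enhancers through RNA recognition motifs and recruit the splicing machinery through a domain rich in arginine and serine. Many hnRNPs bind silencer elements and oppose them, and the balance between both families sets which exons are kept. CLK kinases phosphorylate the arginine-serine domain and so release SR proteins from nuclear speckles. Several of these genes also limit their own level through a poison exon or a retained intron, which sends part of their transcripts to nonsense-mediated decay or holds them in the nucleus. Their transcripts are in general abundant in dividing cells.

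The promoters of 4 of these genes are shown because CLK1 and CLK4 moved opposite to the rest at 7 days, whereas HNRNPAB and HNRNPD were among the genes that fell furthest. The letters are from RefSeq on GRCh38.p14, read 5' to 3' on the strand of the gene, and cover the longest run of the 250 bases before the gene's start in RefSeq that overlaps no annotated exon. For all 4 genes that start lies inside the longer gene span that GENCODE gives. The stretches of CLK4 and HNRNPD fall within the gene coordinates of that annotation, whereas those of CLK1 and HNRNPAB lie just outside them. Capitals mark exact matches, on either strand, to the motifs searched: CCAAT box CCAAT, ETS core CCGGAAG, cAMP response element TGACGTCA, E-box CACGTG, E2F site TTTCCCGC, GC box GGGCGG and TATA box TATAAA.
CLK1 chr2:200864745-200864908: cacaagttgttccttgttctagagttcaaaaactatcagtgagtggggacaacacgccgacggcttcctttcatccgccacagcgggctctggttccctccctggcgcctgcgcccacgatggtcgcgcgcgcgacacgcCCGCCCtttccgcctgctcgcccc
CLK4 chr5:178627115-178627300: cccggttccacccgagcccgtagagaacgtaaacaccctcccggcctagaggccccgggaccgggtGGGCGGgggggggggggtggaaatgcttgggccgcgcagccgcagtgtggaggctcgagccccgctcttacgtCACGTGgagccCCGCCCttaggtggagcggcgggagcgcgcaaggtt
HNRNPAB chr5:178204283-178204506: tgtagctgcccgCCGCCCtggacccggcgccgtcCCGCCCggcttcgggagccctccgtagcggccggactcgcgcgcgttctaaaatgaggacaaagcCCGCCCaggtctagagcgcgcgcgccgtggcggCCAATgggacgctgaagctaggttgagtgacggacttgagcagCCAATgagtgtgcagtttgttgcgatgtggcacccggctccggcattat
HNRNPD chr4:82373992-82374118: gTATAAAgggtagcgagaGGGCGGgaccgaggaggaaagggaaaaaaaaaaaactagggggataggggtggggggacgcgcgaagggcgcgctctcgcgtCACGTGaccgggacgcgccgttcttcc
CLK1 and CLK4 are read from the minus strand of chromosomes 2 and 5, HNRNPAB from the plus strand of chromosome 5 and HNRNPD from the minus strand of chromosome 4. The CLK1 stretch held 1 GC box. The CLK4 stretch held 2 GC boxes around an E-box, HNRNPAB held 3 GC boxes and 2 CCAAT boxes, and HNRNPD held a TATA box, a GC box and an E-box. A RefSeq promoter was matched for 39 of the 43 genes, and SRSF2, TRA2A, HNRNPA1 and RBM39 were not matched. Over the whole 250 bases, a GC box was present in 26 of the 39 promoters (66.7%), against 42.3% of 27305 promoters of the same length. An E-box was present in 8 (20.5%), against 6.49%, namely in CLK4, HNRNPA3, HNRNPD, HNRNPDL, HNRNPH2, HNRNPH3, HNRNPM and SF3B1. The CCAAT box was found in 16 (41.0%, against 33.0%), the ETS core in 6 (15.4%, against 8.8%), the TATA box in 5 (12.8%, against 11.1%) and the E2F site in 3 (7.69%, against 1.42%). The cAMP response element, present in 1.8% of all promoters, was in none of the 39. The 27305 promoters were not limited to genes tested in these cells, as the 39 were, so these shares compare unlike sets. These matches are descriptions of the letters, and binding was not measured.

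Library totals ran from 25572691 to 38373679 estimated counts. Levels are given as CPM, counts scaled to a common library total with TMM factors. TDP1 had 26.3 ± 1.60 CPM among untreated WT cultures (SD, n = 3), and KO cultures had 10.8 ± 0.647, or 41.0% of that level (log2 fold change -1.29, edgeR adjusted p 1.3e-05). The 6 epithelial markers summed to between 10794 and 11395 CPM in the untreated WT libraries, between 6293 and 7277 in DTC, between 9276 and 12151 in DTEC and between 11479 and 12314 in KO. Of the 4 lung lineage markers, NKX2-1, NAPSA and SFTPC were nearly absent, at under 2 CPM on average in every group. Summed over this list, untreated WT libraries had at least 1.21 and at most 2.33 CPM, and no DTC library passed 2.55. KO libraries lay higher, from 5.51 to 7.54, and DTEC libraries lay highest, from 12.3 to 17.5. With the other markers that low, most of the DTEC sum fell on SFTPB, the remaining member. The lists for immune cells, fibroblasts and endothelium, of 4 genes each, reached at most 53.5, 57.4 and 142 CPM in any library. Their members PTPRC, CD3E, MS4A1, COL3A1, DCN, LUM and CLDN5 had means under 1 CPM, while CD68, COL1A1, PECAM1 and CDH5 carried those sums. The fibroblast sum was 7.79 to 8.83 CPM in untreated WT and 54.8 to 57.4 in DTC. The endothelial sum was 58.5 to 61.4 CPM in untreated WT, 41.9 to 49.5 in DTC and 122 to 142 in DTEC. Mitochondrially encoded genes took between 2.50% and 2.77% of all counts without drug in wild-type cells, between 4.43% and 5.41% in DTC, between 1.82% and 2.38% in DTEC and between 2.59% and 2.78% in KO. DTC replicate 1 lay further from the other DTC libraries than they lay from each other, with a chi-square per degree of freedom of 105 and 65.2 against 15.6. The same held on a smaller scale for DTEC replicate 3 (44.7 and 19.5 against 11.2) and untreated WT replicate 1 (23.3 and 16.3 against 5.02), while the KO pairs ran from 3.64 to 6.03.

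After 7 days of erlotinib, transcripts of most of these splicing factors had fallen, and by 28 days they had come part of the way back. In DTC, 37 of 43 genes fell and 2 rose (CLK1 and CLK4), where a call is an edgeR quasi-likelihood adjusted p under 0.05. SRSF5, SRSF11, TRA2A and HNRNPLL did not pass. These 39 calls (90.7%) stand beside 67.3% of all 17115 genes tested, of which 33.3% were called lower and 34.0% higher. The median log2 fold change was -1.11 over the 43 genes and 0.06 over all genes, and 23 of the 43 were called at a fold of 2 or more, against 36.2% of all genes. In DTEC, 31 genes fell and 0 rose (72.1%, against 52.3% of all genes, 26.3% lower and 26.0% higher). Their median against untreated WT was -0.51, against 0.02 for all genes, and only HNRNPAB, PTBP1, SRSF2 and HNRNPM were still called at 2-fold (19.9% of all genes were). The libraries of the groups did not overlap for 37 genes lower and 2 higher in DTC (33.8% and 35.1% of all genes) and for 37 lower and 1 higher in DTEC (31.3% and 31.1%). Both comparisons use the same untreated WT libraries. Of the libraries that stood apart, leaving out DTC replicate 1 gave 40 calls at 7 days and 35 at 28 days, leaving out untreated WT replicate 1 gave 39 and 27, and leaving out DTEC replicate 3 gave 39 and 28. The shares of all genes called moved too: in the same order they were 70% and 57.8%, 62.2% and 45.2%, and 67% and 48.4%.

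**Figure D1:**
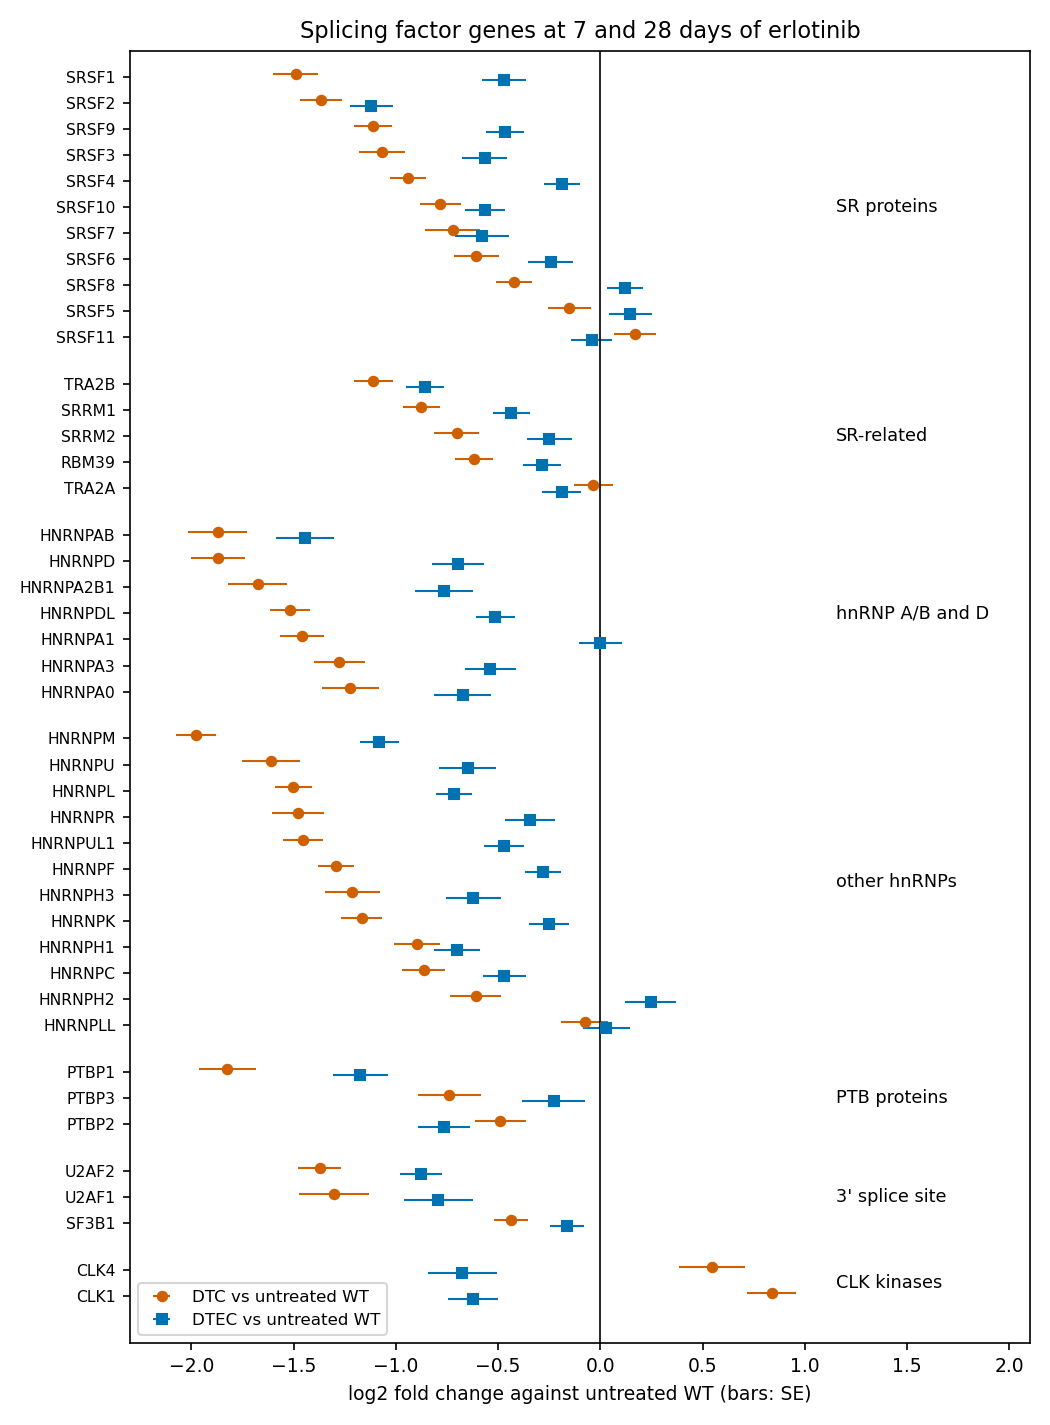
Log2 fold change of each of the 43 genes against untreated WT (x axis) at 7 days (circles, DTC) and 28 days (squares, DTEC) of erlotinib, with bars for the standard error, grouped by role on the y axis. Most circles lie left of their squares, whereas CLK1 (0.84) and CLK4 (0.55) lie right of 0 at 7 days and left of 0 at 28 days.

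Summed over the 43 genes, the share of a library's counts was 1.64%, 1.58% and 1.57% in the untreated WT replicates. It was 0.949%, 0.871% and 0.857% in DTC, 1.26%, 1.31% and 1.30% in DTEC, and between 1.496% and 1.58% in KO. The DTC libraries lay lowest, the DTEC libraries between them and untreated WT without touching either, and KO overlapped untreated WT. Because these are bulk libraries, fewer cells of a kind and less RNA per cell cannot be told apart. Proliferation genes moved over the same groups: the sum of 14 such genes was between 4199 and 4438 CPM in untreated WT, between 1290 and 1399 in DTC, between 2250 and 2465 in DTEC and between 4246 and 4342 in KO. All 14 were called lower at both times, with PLK1, a mitotic kinase, at -3.36 and AURKA, the Aurora A kinase, at -2.40 in DTC. Their part in the change of the splicing factors was not tested, nor was that of the mitochondrial share.

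**Figure D2:**
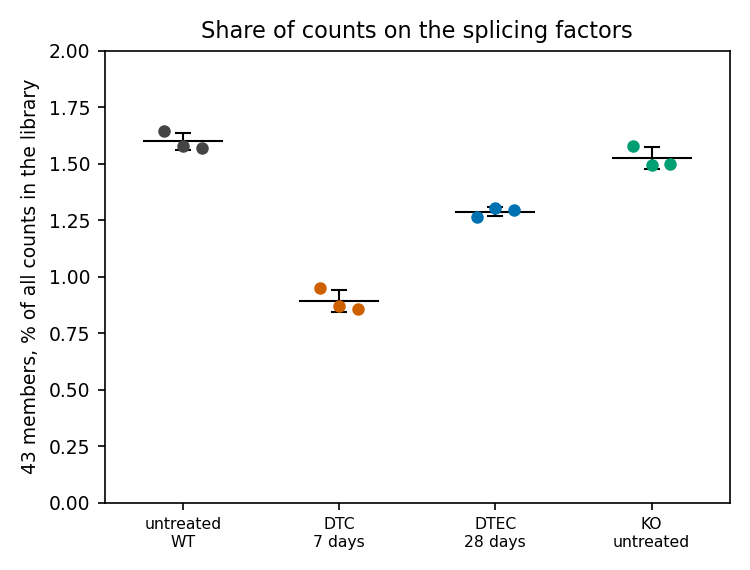
Share of all counts in a library that fell on the 43 genes (y axis, percent) for the 3 libraries of each group (points), with the mean (long line) and SD (bars). DTC libraries sit between 0.857% and 0.949% and DTEC libraries between 1.26% and 1.31%, all below the untreated WT libraries at 1.57% to 1.64%.

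The size of these counts depends in part on how libraries are scaled. With total counts alone in place of TMM factors, the median of all genes in DTC moved up by 0.35, and 68.4% of all called genes were higher instead of 50.5%. On that scale 32 of the 43 genes were called lower and 5 higher in DTC, the added ones being SRSF11, TRA2A and HNRNPLL, and SRSF6, SRSF8, HNRNPH2, PTBP2 and SF3B1 were not called. Upper-quartile scaling gave 34 lower and 4 higher, with 65.0% of all calls higher. In DTEC the same change of scale shifted the all-gene median by 0.17 and gave 27 lower and 3 higher among the 43, with 63.7% of all calls higher. No gene that was called changed sign under any of the 19 alternatives run.

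**Figure D3:**
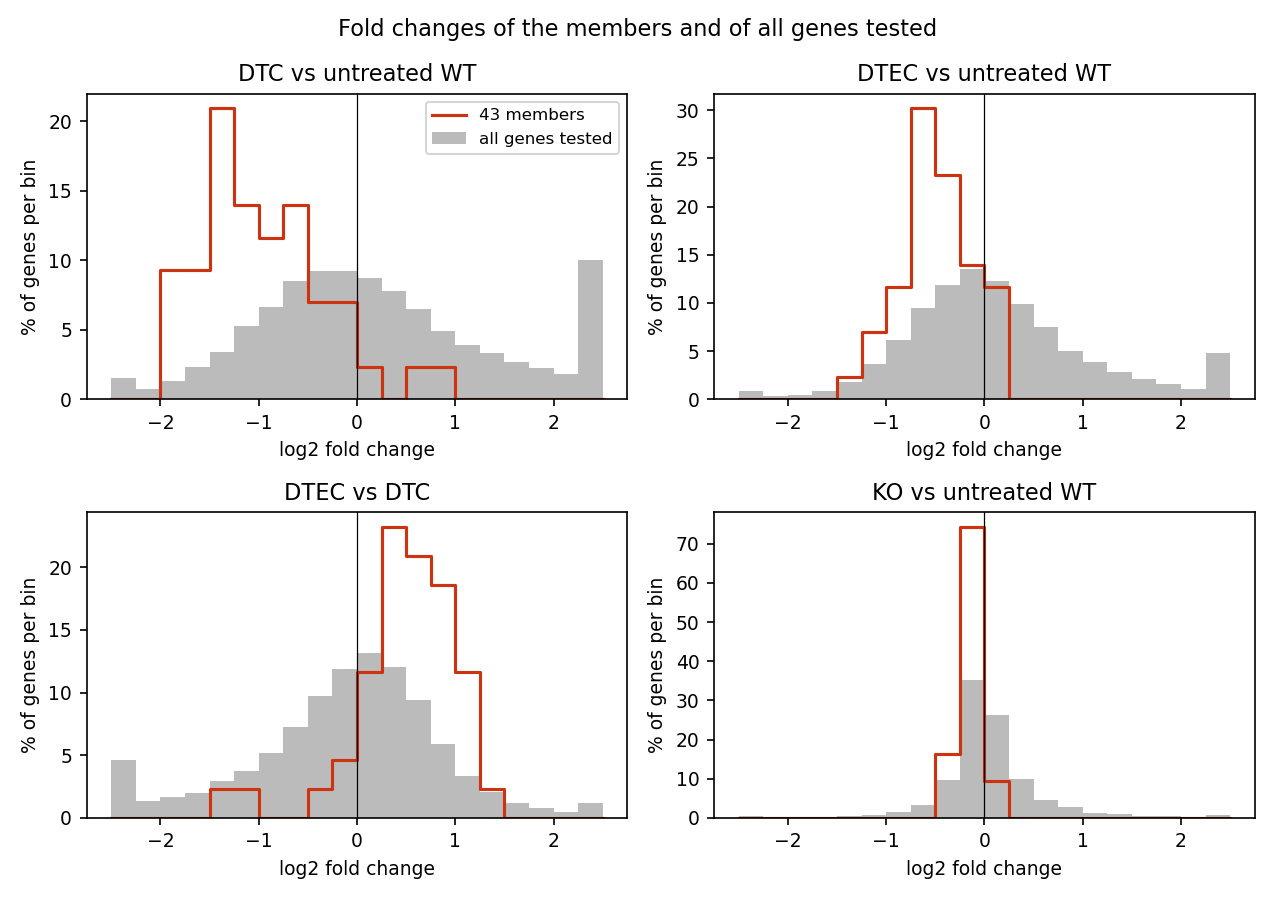
Distribution of log2 fold changes (x axis) of the 43 genes (red line) and of all genes tested (grey bars) in 4 comparisons, as the percent of genes per bin (y axis); the outermost bins hold all values beyond them. The medians of the 43 genes were -1.11 in DTC, -0.51 in DTEC, 0.51 for DTEC against DTC and -0.14 in KO, against 0.06, 0.02, -0.01 and -0.01 for all genes.

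Among the 11 classical SR proteins, 9 fell in DTC (81.8%) and 6 in DTEC (54.5%). Over all genes 67.3% and 52.3% were called, 33.3% and 26.3% lower, so the DTEC share of calls was close to that of all genes. SRSF1 (ENSG00000136450, GRCh38 chr17:58003360-58007346), a regulator of constitutive and alternative splicing that also acts in mRNA export, had the highest CPM of the group. It stood at 511, 466 and 483 CPM in untreated WT, 203, 162 and 156 in DTC, 364, 362 and 326 in DTEC, and 482, 442 and 452 in KO. No DTC or DTEC library reached any untreated WT library, whereas KO overlapped untreated WT. SRSF1 fell by 1.49 on the log2 scale in DTC (SE 0.110, edgeR adjusted p 3.21e-08) and by 0.47 in DTEC (SE 0.108, adjusted p 0.0021). SRSF1 shared 45.6% of the 101-base windows of its transcripts with AC015813.2, another annotated gene, and the summed counts of both fell by 1.46 in DTC.

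SRSF2, an SR protein known to stay in the nucleus, kept most of its loss. Its levels were 339, 357 and 338 CPM in untreated WT, 117, 148 and 136 in DTC, 147, 154 and 175 in DTEC, and 360, 360 and 354 in KO. The DTC and DTEC libraries overlapped each other and lay far below the other 6 libraries. SRSF2 fell by 1.37 in DTC (edgeR adjusted p 4.15e-08) and by 1.12 in DTEC (SE 0.103, adjusted p 8.6e-07), and the 0.25 between DTEC and DTC did not pass (adjusted p 0.0544). It passed in 4 of 19 alternatives, with adjusted p from 0.0383 to 0.648. SRSF7 and SRSF10, a partner in mRNA export and a splicing repressor after dephosphorylation, had the same order of calls: they fell by 0.72 and 0.78 in DTC and by 0.58 and 0.56 in DTEC. SRSF3, the smallest SR protein and an export adaptor, fell by 1.07 and 0.57, and SRSF9 by 1.11 and 0.47.

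SRSF4, SRSF6 and SRSF8 fell in DTC, by 0.94, 0.61 and 0.42, and were not called in DTEC (-0.19, -0.24 and 0.12). The calls of SRSF6 and SRSF8 in DTC were lost with total counts alone (edgeR adjusted p 0.0549 and 0.507), and that of SRSF8 also with upper-quartile scaling. SRSF5 and SRSF11 did not follow the others. SRSF5 was at 190, 158 and 158 CPM in untreated WT, 138, 168 and 151 in DTC, 189, 176 and 196 in DTEC, and 166, 151 and 160 in KO. Its untreated WT and DTC libraries overlapped (-0.15, adjusted p 0.213), its sign there turned positive with total counts alone, and its only call was between DTEC and DTC (0.30, adjusted p 0.0259). SRSF11, known to interact with U2AF, was at 153 ± 5.82 CPM in untreated WT and 172 ± 22.0 in DTC (SD, n = 3; 0.17, adjusted p 0.153). Without DTC replicate 1, or with DESeq2, total counts alone or upper-quartile scaling, SRSF11 was called higher in DTC.

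Of the 5 SR-related proteins, 4 fell in DTC (80%) and 3 in DTEC (60%), and none rose. Over all genes 67.3% and 52.3% were called in either direction, 33.3% and 26.3% lower. SRRM2, the large scaffold of nuclear speckles, was the most abundant in CPM, at 685, 802 and 790 CPM in untreated WT, 543, 436 and 421 in DTC, 657, 647 and 610 in DTEC, and 836, 816 and 869 in KO. Every KO library lay above every untreated WT library, with a log2 fold change of 0.15 that did not pass (edgeR adjusted p 0.554). SRRM2 fell by 0.70 in DTC (SE 0.110, adjusted p 5.95e-05), while its DTEC value of -0.25 did not pass (adjusted p 0.0699). SRRM1, its partner in splicing coactivation, fell by 0.88 and 0.44, and RBM39, a U2AF-related factor, fell by 0.62 and 0.29.

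The Tra2 proteins are paralogs that bind GAA-rich exonic enhancers, and their transcripts parted under erlotinib. TRA2B was at 297, 270 and 274 CPM in untreated WT, 115, 145 and 129 in DTC, 154, 156 and 153 in DTEC, and 254, 249 and 254 in KO. TRA2A was at 61.5, 54.0 and 58.2 CPM in untreated WT, 50.8, 61.2 and 57.6 in DTC, 49.4, 53.2 and 49.8 in DTEC, and 47.7, 44.3 and 45.8 in KO. TRA2B separated all treated from all untreated WT libraries, whereas the TRA2A libraries of DTC overlapped those of untreated WT. TRA2B fell by 1.11 in DTC (edgeR adjusted p 1.49e-07) and by 0.86 in DTEC (SE 0.095, adjusted p 4.84e-06). TRA2A was at -0.03 in DTC (adjusted p 0.766), a value that turned positive, 0.32, with total counts alone, and at -0.19 in DTEC (adjusted p 0.111).

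All 7 hnRNPs of the A/B and D type fell in DTC, each by at least 2-fold, and 6 fell in DTEC (85.7%), where 33.3% and 26.3% of all genes were called lower. Their values in DTEC were spread from -1.44 to 0.00. HNRNPA1 (ENSG00000135486, chr12:54280193-54287088), a splicing repressor and one of the most abundant nuclear RNA-binding proteins, came back completely in these values. It was at 2059, 1709 and 1707 CPM in untreated WT, 723, 620 and 647 in DTC, 1720, 1824 and 1932 in DTEC, and 1614, 1490 and 1493 in KO. The DTEC libraries lay within the range of untreated WT, and the DTC libraries lay far below it. HNRNPA1 fell by 1.46 in DTC (SE 0.107, edgeR adjusted p 2.98e-08), rose by 1.46 from DTC to DTEC (adjusted p 8.16e-08), and stood at 0.00 in DTEC against untreated WT with an SE of 0.105. HNRNPA1 shared 17.4% of its windows with other annotated genes, 10.2% with HNRNPA1P48 alone, so its counts are in part an assignment between genes.

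HNRNPAB and HNRNPD, which bind AU-rich and other elements in the nucleus and cytoplasm, fell by the same amount in DTC but not in DTEC. HNRNPAB (ENSG00000197451) was at 417, 378 and 357 CPM in untreated WT, 128, 89.7 and 97.3 in DTC, 121, 136 and 166 in DTEC, and 362, 337 and 339 in KO. HNRNPD (ENSG00000138668), also known as AUF1, was at 385, 323 and 320 CPM in untreated WT, 116, 81.7 and 84.2 in DTC, 215, 209 and 210 in DTEC, and 312, 285 and 274 in KO. The DTEC libraries of HNRNPAB overlapped those of DTC, while those of HNRNPD lay between DTC and untreated WT without touching either. Both fell by 1.87 in DTC (SE 0.144 and 0.132, edgeR adjusted p 4.8e-08 and 2.07e-08). In DTEC, HNRNPAB was still 1.44 below untreated WT (SE 0.142, adjusted p 1.59e-06) and HNRNPD 0.70 below (adjusted p 0.000418). The remaining members were HNRNPA2B1, a reader of RNA sorting signals, HNRNPDL, the D-like paralog, HNRNPA3 and HNRNPA0.

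HNRNPA2B1 was at 1790, 1503 and 1522 CPM in untreated WT, 638, 444 and 425 in DTC, 905, 979 and 954 in DTEC, and 1484, 1285 and 1339 in KO. HNRNPDL was at 373, 304 and 317 CPM in untreated WT, 120, 113 and 114 in DTC, 237, 233 and 226 in DTEC, and 320, 295 and 296 in KO. For both genes the 3 groups of wild-type libraries formed 3 separate ranges in the order DTC, DTEC, untreated WT. They fell by 1.68 and 1.52 in DTC (edgeR adjusted p 1.5e-07 and 7.99e-09) and by 0.76 and 0.51 in DTEC. HNRNPA3 and HNRNPA0 fell by 1.28 and 1.22 in DTC and by 0.54 and 0.67 in DTEC.

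Of the 12 other hnRNPs, 11 fell in DTC (91.7%) and 10 in DTEC (83.3%), beside 33.3% and 26.3% of all genes called lower and 67.3% and 52.3% called at all. HNRNPM (ENSG00000099783, chr19:8444767-8489114), a regulator of alternative exons in epithelial and mesenchymal cell states, had the lowest fold change of the 43 genes in DTC, a first place that it lost to HNRNPD without DTC replicate 1, where both stood at -2.01. It was at 560, 634 and 575 CPM in untreated WT, 163, 143 and 143 in DTC, 261, 279 and 297 in DTEC, and 557, 555 and 534 in KO. The DTC libraries lay lowest, DTEC lay between DTC and the untreated groups, and all KO libraries lay just below the untreated WT range. HNRNPM fell by 1.98 in DTC (SE 0.098, edgeR adjusted p 7.97e-10) and by 1.08 in DTEC (SE 0.096, adjusted p 6.07e-07).

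HNRNPK, a KH-domain protein that binds C-rich RNA and DNA, had the highest CPM of this group. Its levels were 1154, 1058 and 1069 CPM in untreated WT, 550, 452 and 459 in DTC, 968, 917 and 874 in DTEC, and 1032, 978 and 974 in KO. HNRNPK fell by 1.17 in DTC (edgeR adjusted p 1.51e-07) and by 0.25 in DTEC (SE 0.099, adjusted p 0.0468). That DTEC call held in 4 of 19 alternatives, where its adjusted p ran from 0.00914 to 0.505. HNRNPU, a nuclear scaffold protein, was at 942, 901 and 859 CPM in untreated WT, 382, 256 and 248 in DTC, 600, 574 and 548 in DTEC, and 826, 773 and 771 in KO. HNRNPL, which binds CA repeats, was at 562, 528 and 522 CPM in untreated WT, 202, 175 and 192 in DTC, 321, 316 and 345 in DTEC, and 511, 509 and 500 in KO. Both formed separate ranges in the wild-type groups, with DTC lowest. HNRNPU and HNRNPL fell by 1.61 and 1.50 in DTC (adjusted p 1.94e-07 and 4.77e-09) and by 0.65 and 0.71 in DTEC.

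HNRNPR, HNRNPUL1 and HNRNPF fell by 1.48, 1.45 and 1.29 in DTC and by 0.34, 0.47 and 0.28 in DTEC. HNRNPR is related to SYNCRIP, HNRNPUL1 to HNRNPU, and HNRNPF binds G-rich tracts as do the H proteins. The DTEC call of HNRNPR held in 8 of 19 alternatives (edgeR adjusted p 0.00139 to 0.245), that of HNRNPF in 11 (0.00346 to 0.301) and that of RBM39 in 13 (0.00501 to 0.298). HNRNPC, which guards against the use of Alu-derived exons, fell by 0.86 and 0.47, and HNRNPH3 by 1.21 and 0.62. HNRNPH1 fell by 0.90 and 0.70, while its paralog HNRNPH2 fell by 0.61 in DTC (adjusted p 0.000616, and 0.081 with total counts alone) and stood at 0.25 in DTEC (adjusted p 0.114, and called higher in 5 of 19 alternatives, with adjusted p from 0.0115 to 0.304). HNRNPLL, a paralog of HNRNPL known for its role in lymphocytes, had 45.2 ± 1.17 CPM without drug, then 42.8 ± 4.4 at 7 days and 46.1 ± 6.87 at 28 days, with KO at 43.7 ± 1.38 (SD, n = 3), and was called in no comparison by edgeR. With total counts alone, HNRNPLL was called higher in DTC at 0.28 (adjusted p 0.044).

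The PTB proteins repress exons that lie beside pyrimidine-rich tracts. PTBP1 (ENSG00000011304, chr19:797075-812327), the form of most non-neuronal cells, was at 619, 919 and 857 CPM in untreated WT, 217, 221 and 238 in DTC, 314, 358 and 390 in DTEC, and 782, 845 and 780 in KO. Untreated WT replicate 1 was the lowest of its group, and was still above every treated library. PTBP1 fell by 1.82 in DTC (SE 0.138, edgeR adjusted p 3.89e-08) and by 1.17 in DTEC (SE 0.135, adjusted p 6.79e-06). PTBP2, the form enriched in neurons, was scarce, at 21.4, 15.8 and 18.1 CPM in untreated WT, 12.3, 14.2 and 12.8 in DTC, 10.7, 11.9 and 9.92 in DTEC, and 15.3, 13.8 and 14.3 in KO. All treated and KO libraries of PTBP2 lay below untreated WT, and DTEC lay lowest. PTBP2 fell by 0.49 in DTC (adjusted p 0.00298) and by 0.76 in DTEC (SE 0.126, adjusted p 0.000161), and the DTC call was lost with total counts alone (-0.13, adjusted p 0.346) and with upper-quartile scaling. PTBP3 fell by 0.74 in DTC and was at -0.23 in DTEC (adjusted p 0.23).

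Recognition of the 3' splice site rests on U2AF1, which reads the AG, on U2AF2, which reads the pyrimidine tract, and on SF3B1, which holds the branch site. U2AF2 was at 474, 556 and 519 CPM in untreated WT, 188, 196 and 215 in DTC, 254, 280 and 310 in DTEC, and 465, 488 and 489 in KO. U2AF2 fell by 1.37 in DTC (edgeR adjusted p 3.87e-08) and by 0.88 in DTEC (SE 0.102, adjusted p 7.81e-06), with no overlap between the wild-type groups. SF3B1 had smaller differences, at 454, 414 and 439 CPM in untreated WT, 335, 320 and 311 in DTC, 394, 394 and 381 in DTEC, and 391, 398 and 396 in KO. All of its DTEC and KO libraries lay between the DTC and the untreated WT ranges. SF3B1 fell by 0.44 in DTC (SE 0.083, adjusted p 0.00032) and was at -0.16 in DTEC (adjusted p 0.116). The DTC call of SF3B1 was lost with total counts alone (-0.08, adjusted p 0.381) and with upper-quartile scaling.

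U2AF1 needs its copy to be counted with it. GRCh38 holds a near-identical gene on chromosome 21, U2AF1L5 (ENSG00000275895), with which U2AF1 shared 89.3% of its 101-base windows. The copy took 34.1% of the summed counts in untreated WT replicate 1, 23.5% in DTC replicate 1 and 33.4% in DTEC replicate 3, 1.22% in DTEC replicate 1 and under 0.2% in the other 8 libraries. By itself, U2AF1 was at 67.8, 96.9 and 89.9 CPM in untreated WT, 27.8, 39.8 and 35.5 in DTC, 54.0, 55.0 and 38.1 in DTEC, and 86.4, 77.7 and 79.2 in KO. Summed with the copy it had 96.6 ± 6.45 CPM without drug, 37.2 ± 2.28 at 7 days and 55.6 ± 1.39 at 28 days, and KO had 81.2 ± 4.72 (SD, n = 3). The SD of the DTEC group was 9.45 CPM before and 1.39 CPM after the sum, and the low U2AF1 value of DTEC replicate 3 was not seen in the sum. The summed counts fell by 1.33 in DTC (edgeR adjusted p 1.84e-08) and by 0.77 in DTEC (adjusted p 9.27e-06), against 1.30 and 0.79 for U2AF1 alone.

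CLK1 and CLK4 were the 2 genes that rose at 7 days, and both had turned below untreated WT by 28 days. CLK1 (ENSG00000013441, chr2:200853009-200864744) was at 31.1, 25.2 and 30.3 CPM in untreated WT, 45.3, 60.3 and 49.4 in DTC, 18.1, 19.7 and 18.5 in DTEC, and 23.2, 23.4 and 25.9 in KO. CLK4 (ENSG00000113240, chr5:178602664-178630615) was at 8.63, 9.58 and 8.39 CPM in untreated WT, 14.4, 13.9 and 10.6 in DTC, 4.20, 6.61 and 5.88 in DTEC, and 8.28, 7.32 and 7.96 in KO. For both genes every DTC library lay above and every DTEC library below every untreated WT library. CLK1 rose by 0.84 in DTC (SE 0.120, edgeR adjusted p 2.44e-05), and fell by 0.62 in DTEC against untreated WT (adjusted p 0.000642) and by 1.46 against DTC (SE 0.122, adjusted p 2.98e-07). CLK4 rose by 0.55 in DTC (SE 0.163, adjusted p 0.00847), and fell by 0.67 in DTEC (adjusted p 0.0038) and by 1.22 against DTC (SE 0.167, adjusted p 2.99e-05). Both kinase genes are annotated with retained-intron transcripts, 8 for CLK1 and 7 for CLK4, and gene totals do not separate these from the coding form.

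**Figure D4:**
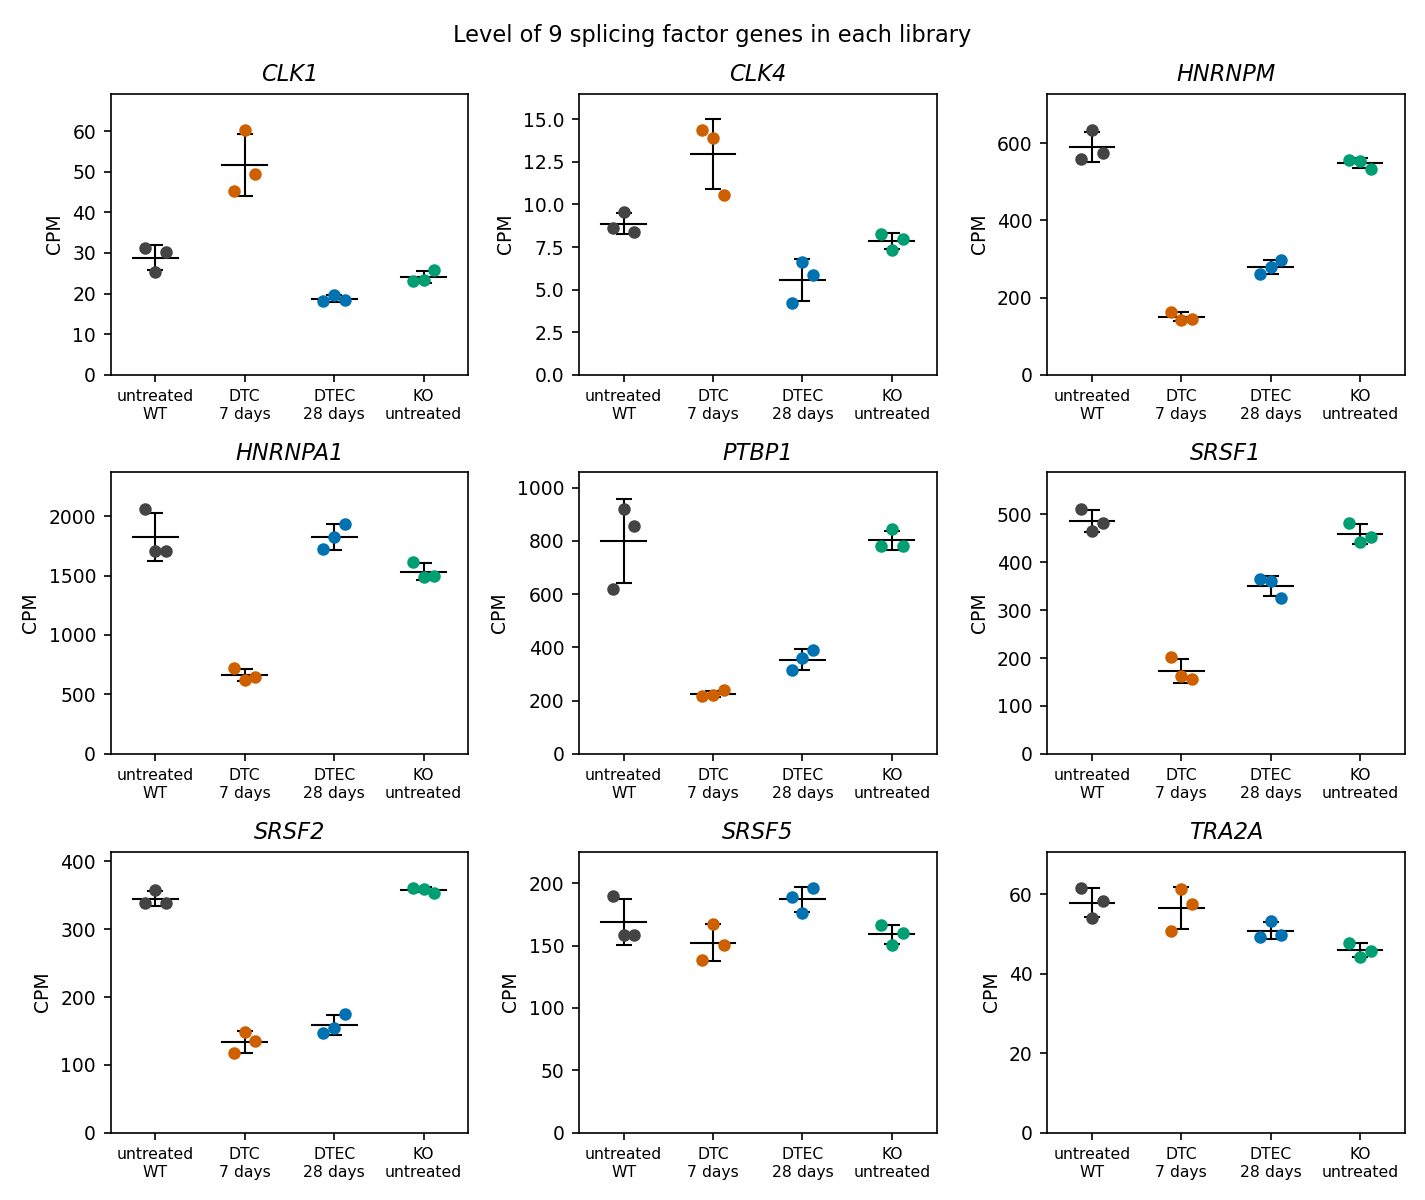
Level in CPM (y axis, from 0) of 9 of the genes in each of the 3 libraries per group (points), with the mean (long line) and SD (bars). CLK1 and CLK4 are highest in DTC and lowest in DTEC, HNRNPA1 in DTEC lies within the untreated WT range of 1707 to 2059 CPM, SRSF2 in DTEC stays at 147 to 175 CPM, and SRSF5 and TRA2A overlap between untreated WT and DTC.

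Between 7 and 28 days, 33 of the 43 genes rose and 2 fell (81.4%, against 55.4% of all genes, 28.8% higher and 26.6% lower). The libraries of DTEC lay wholly above those of DTC for 31 genes and wholly below for 4 (29.0% and 27.7% of all genes), and 8 of the 43 were called at 2-fold (22.4% of all genes). With total counts alone 23 rose and 5 fell, and among all genes 37.4% of calls were higher. This comparison shares its DTC libraries with the comparison of DTC and untreated WT. Read over the 3 wild-type comparisons, 24 genes fell at 7 days, rose from there and were still called lower at 28 days. Another 8 fell and rose and were not called at 28 days against untreated WT: SRSF4, SRSF6, SRSF8, SRRM2, HNRNPA1, HNRNPH2, PTBP3 and SF3B1. A further 5, namely SRSF2, SRSF7, SRSF10, HNRNPH1 and PTBP2, fell by both times with no call between them. The other 6 were CLK1 and CLK4, SRSF5, and SRSF11, TRA2A and HNRNPLL, which had no call.

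The genes that rose most from DTC to DTEC were HNRNPA1 (1.46), HNRNPD (1.17), HNRNPR (1.13), SRSF1 (1.02), HNRNPF (1.01), HNRNPDL (1.00), HNRNPUL1 (0.98) and HNRNPU (0.96), with edgeR adjusted p from 8.16e-08 to 5.31e-05. HNRNPR went from 124, 85.7 and 92.4 CPM in DTC to 237, 214 and 213 in DTEC, beside 299, 269 and 275 in untreated WT. HNRNPF went from 207, 192 and 218 CPM to 390, 417 and 439, beside 505, 508 and 499. HNRNPUL1 went from 175, 161 and 165 CPM to 304, 325 and 362, beside 421, 495 and 457. In these 3 genes the DTEC libraries lay above DTC and below untreated WT. Weaker calls of this comparison depended on single choices: TRA2B (0.25, adjusted p 0.0346) was called in 4 of 19 alternatives, SRSF5 in 10, HNRNPAB, PTBP3 and SF3B1 in 12 each, and U2AF1 in 14. U2AF1 was taken there without its copy. Summed with the copy it had 36.3, 39.8 and 35.5 CPM in DTC and 54.7, 55.0 and 57.2 in DTEC, with no overlap.

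Levels can be compared between genes only per length, and on CPM per kilobase of merged exons the order shifted with treatment. Merged exons take in every annotated transcript, retained introns included, with 2144 bases for HNRNPAB and 22512 for HNRNPU. The order of genes within a group therefore depends in part on the annotation. HNRNPA1 led in all 4 groups, with 358 CPM per kb before treatment, 130 at 7 days and 358 at 28 days, and 301 in KO, and HNRNPK came next with 214, 95.2, 180 and 194. HNRNPAB held the next place in untreated WT at 179 and was at 49.0 in DTC, below HNRNPC (69.2), HNRNPF (63.2), HNRNPA2B1 (54.2), HNRNPA3 (52.6) and SRSF1 (51.9). CLK4 and PTBP2 were the lowest in every group, at 1.12 and 1.42 CPM per kb in untreated WT and 1.63 and 1.01 in DTC. CLK1 was at 5.59 in untreated WT.

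Ratios of related genes within a library do not depend on the scaling, and 4 pairs were compared. With 3 libraries against 3, the exact two-sided permutation test cannot give a p under 0.1, which after Benjamini-Hochberg adjustment over the 16 tests was 0.133, so none could pass. TRA2A per TRA2B was 0.208, 0.200 and 0.213 in untreated WT, 0.441, 0.423 and 0.448 in DTC, 0.320, 0.340 and 0.326 in DTEC, and 0.188, 0.178 and 0.181 in KO. The 4 groups did not overlap. The log2 ratio of TRA2A to TRA2B was 1.08 higher in DTC than in untreated WT and 0.67 higher in DTEC. HNRNPLL per HNRNPL was 0.0811, 0.0831 and 0.0883 in untreated WT, 0.187, 0.258 and 0.237 in DTC, 0.162, 0.152 and 0.112 in DTEC, and 0.0826, 0.0883 and 0.0880 in KO. Its log2 ratio was 1.42 higher in DTC and 0.73 higher in DTEC, with no overlap, and KO overlapped untreated WT.

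PTBP2 per PTBP1 was 0.0345, 0.0172 and 0.0211 in untreated WT, 0.0570, 0.0644 and 0.0536 in DTC, 0.0343, 0.0333 and 0.0255 in DTEC, and 0.0196, 0.0164 and 0.0184 in KO. DTC lay above the other groups (1.32 on the log2 scale), while DTEC overlapped untreated WT through WT replicate 1 (0.40, exact permutation p 0.4). HNRNPH2 per HNRNPH1 was 0.365, 0.334 and 0.347 in untreated WT, 0.481, 0.347 and 0.455 in DTC, 0.776, 0.653 and 0.608 in DTEC, and 0.320, 0.320 and 0.323 in KO. This pair differed from the others in that DTEC was highest, 0.95 above untreated WT, whereas DTC overlapped untreated WT (0.28, exact permutation p 0.2). HNRNPH2 shared 12.4% of its windows with the readthrough gene RPL36A-HNRNPH2.

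**Figure D5:**
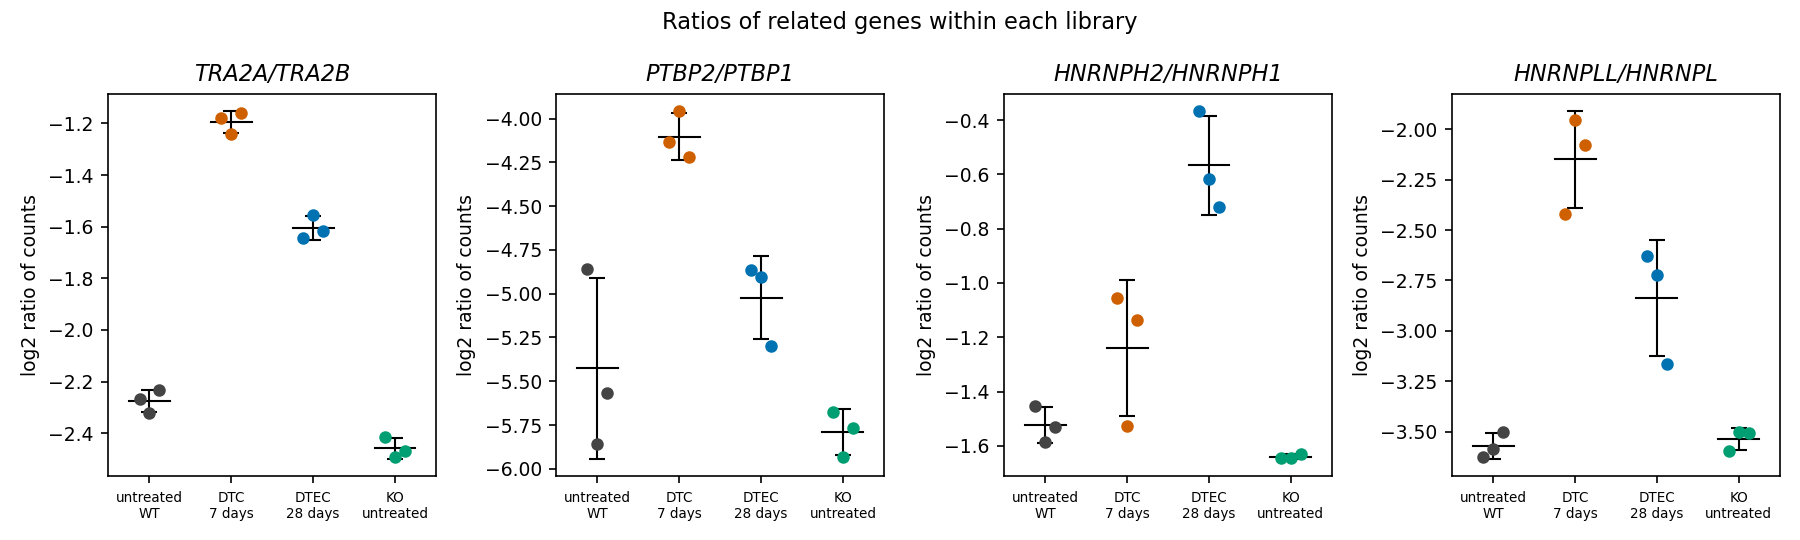
Log2 ratio of the counts of 2 related genes in each library (y axis, each panel on its own scale), 3 libraries per group (points) with the mean (long line) and SD (bars). TRA2A/TRA2B, PTBP2/PTBP1 and HNRNPLL/HNRNPL are highest in DTC, and HNRNPH2/HNRNPH1 is highest in DTEC.

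In the untreated TDP1 knockout line, differences from untreated WT were small. Of the 43 genes, 1 was called (2.33%, against 4.31% of all genes, 1.55% lower and 2.76% higher): HNRNPF fell from 505, 508 and 499 CPM to 398, 400 and 404, a log2 fold change of -0.33 (SE 0.087, edgeR adjusted p 0.0461). Its libraries did not overlap, but the call was kept in 5 of 19 alternatives, with adjusted p from 0.000714 to 0.289 over all of them. None of the 43 reached 2-fold, against 1.30% of all genes. The log2 fold change was negative for 39 of the 43, with a median of -0.14 against -0.01 over all genes. Of the 43, 23 genes lay wholly below and 1 wholly above untreated WT (19.9% and 15.8% of all genes). U2AF1 alone overlapped. Summed with its copy, its KO libraries (86.6, 77.7 and 79.2 CPM) lay wholly below untreated WT (103, 96.9 and 90.0 CPM). With total counts alone the median of the 43 was -0.07 and that of all genes 0.05. TRA2A (-0.33, adjusted p 0.0676), PTBP2 (-0.35, adjusted p 0.153), RBM39 (-0.28, adjusted p 0.116) and HNRNPC (-0.27, adjusted p 0.202) had the largest values besides HNRNPF and did not pass. The comparison is of 3 cultures of 1 knockout line, so the genotype and the line cannot be told apart.

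The rest of the splicing pathway was read from lists written from general knowledge. Of 40 genes of the core spliceosome (snRNP proteins, SF3A and SF3B subunits, PRP factors), 36 fell and 0 rose in DTC, with a median of -0.98, and 26 fell and 0 rose in DTEC. These are 90% and 65% of the list, against 67.3% and 52.3% of all genes called and 33.3% and 26.3% called lower. PRPF19, the ubiquitin ligase of the complex that activates the spliceosome, went from 557 ± 12.2 to 138 ± 14.3 CPM (SD, n = 3; -2.02, edgeR adjusted p 6.86e-10), and SNRPF, a ring protein of snRNPs, fell by 1.61. Among 7 other kinases and import factors of SR proteins, 4 fell and 0 rose in DTC, namely SRPK1 (-0.85), TNPO3 (-0.80), DYRK1A (-0.62) and PRPF4B (-0.33). The share called was 57.1% in DTC and 28.6% in DTEC, below the 67.3% and 52.3% of all genes called in either direction. All calls of the list were lower, and 33.3% and 26.3% of all genes were called lower. SRPK1 loads phosphate on SR proteins in the cytoplasm and TNPO3 carries them into the nucleus. The CLK paralogs CLK2 and CLK3 were at -0.17 and -0.09 in DTC and did not pass, and CLK3 was called lower in DTEC at -0.43.

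A list of 17 other genes for RS-rich and speckle proteins was mixed: of 16 tested in DTC, 6 rose and 7 fell, with a median of -0.09. That is 81.2% called, against 67.3% of all genes, which were likewise split (34.0% higher and 33.3% lower). RSRP1, a small arginine-serine-rich protein, went from 3.93 ± 0.304 to 21.0 ± 5.21 CPM (2.42, edgeR adjusted p 5.22e-08), and CCNL2, the speckle cyclin L2, from 42.2 ± 3.61 to 102 ± 21.9 CPM (1.27, adjusted p 1.6e-06; SD, n = 3). CCNL1 (1.02), ARGLU1 (0.97), PNISR (0.52) and NKTR (0.35) also rose, while SON (-1.09), CLASRP (-1.07) and PNN (-1.06) fell. RSRP1, CCNL2, CCNL1, ARGLU1 and NKTR then fell from DTC to DTEC, as CLK1 and CLK4 did. Of 32 tested regulators outside the SR and hnRNP families, 27 fell and 4 rose in DTC (96.9% called, against 67.3% of all genes), and 15 fell and 5 rose in DTEC (62.5%, against 52.3%). SFPQ, a paraspeckle protein, fell by 1.72 and the STAR protein KHDRBS3, under 1 CPM in every group, by 1.79 in DTC. The epithelial regulator ESRP1 fell by 0.70 in DTC and rose to 0.69 above untreated WT in DTEC, from 208 ± 13.9 to 128 ± 24.8 and 335 ± 43.9 CPM (SD, n = 3).

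Nonsense-mediated decay and exon junction factors fell as well, 13 of 14 in DTC (92.9%, median -0.77) and 9 of 14 in DTEC (64.3%), beside 67.3% and 52.3% of all genes called and 33.3% and 26.3% called lower. MAGOH, a core junction protein, was at -1.30 in DTC. Among the 43 splicing factors, 35 (81.4%) had at least 1 annotated transcript of the decay class, against 42.5% of 13667 tested protein-coding genes, and 32 (74.4%) had a retained-intron transcript, against 56.3%. They also had more annotated transcripts, a median of 12 against 7. Gene totals cannot separate productive from decayed or retained forms, and the use of poison exons was not analysed here.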

How the data were processed

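Polyadenylated RNA of 12 PC9 libraries had been sequenced as 101-base pairs with a stranded kit, per the labels' protocols. The authors deposited expected counts per gene (estimated counts that need not be whole), not scaled to depth; RSEM 1.3.1, Bowtie2 2.5.2, DESeq2 1.40.2 and GRCh38 are named, per the submitters' processing notes, without their roles, and the annotation release is not given in the sources used here. Because reads that fit several genes are shared out, near-identical copies trade counts, so sharing of 101-base windows was computed from GENCODE 29 transcripts.

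Counts were rounded and fitted in R 4.3.3 with edgeR 4.0.16 (TMM, filterByExpr by group, robust quasi-likelihood F tests, all 12 libraries), and p-values were adjusted by the Benjamini-Hochberg method over 17115 genes, with calls at an adjusted p under 0.05. Coordinates are those of GENCODE 29 on GRCh38. On simulated data with 100 genes changed at each fold among 15479, 70% of 2-fold and 42% of 1.5-fold changes were recovered. In DTC 67.3% of all genes were called, a far larger part, so these recoveries do not measure the power of the comparisons here. The genes with fold changes and tests in full were the called ones with the largest absolute change, up to 8 per direction, and the most abundant of each role. The 43 genes and all lists were chosen with earlier results of these data known. Alternatives were RLE, total-count and upper-quartile scaling, no count filter, DESeq2 1.42.0, the compared libraries alone, the replicate number as a block, each library left out, and copies summed. Ratios had 0.5 added to each count (5 as an alternative). Counting error only is covered by the depth of 25572691 to 38373679 counts.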

Additional observations from a re-analysis of the deposited data

Results flagged for a closer look

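The effect at 28 days differed from the effect at 7 days for 35 of the 43 genes by the edgeR test of that difference. That is 81.4%, against 55.4% of all genes, and the 10 with the largest differences are given here. The test is the DTEC against DTC comparison, in which the untreated WT mean cancels. The untreated WT libraries enter it through the scaling and the spread estimated over all 12 libraries. HNRNPA1 differed by 1.46 on the log2 scale (-1.46 at 7 days, 0.00 at 28 days, adjusted p 8.16e-08), HNRNPD by 1.17 (adjusted p 4.16e-06) and HNRNPR by 1.13 (adjusted p 4.27e-06). SRSF1 differed by 1.02, HNRNPF by 1.01, HNRNPDL by 1.00, HNRNPUL1 by 0.98 and HNRNPU by 0.96, each lower at both times and nearer to untreated WT at 28 days. CLK1 and CLK4 differed by -1.46 and -1.22, from 0.84 and 0.55 at 7 days to -0.62 and -0.67 at 28 days, and their direction against untreated WT turned. These genes were picked by the size of the difference. DTC replicate 1, DTEC replicate 3 and untreated WT replicate 1 stood apart from their groups, and all 10 differences were called when any 1 of them was left out.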

How the results depend on the processing

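Calls among the 43 genes numbered between 37 and 40 at 7 days, between 27 and 35 at 28 days and between 27 and 37 from 7 to 28 days over the 19 alternatives, and no called gene changed sign. The shares of all genes called ran from 39% to 70%, from 28.7% to 59% and from 31% to 60.3%, each lowest without the count filter. The knockout comparison was least stable. The 738 genes called became 1147 without the count filter, 1146 with DESeq2 and 2656 with the compared libraries alone, and when each library was dropped in turn it ran from 321, with untreated WT replicate 1 dropped, up to 1520, with DTC replicate 1 dropped. Of the 43, the 1 call became 0 with RLE, total-count and upper-quartile scaling and without the count filter, 3 with DESeq2, 6 with the compared libraries alone, and 0 to 4 when libraries were dropped (4 without DTC replicate 1). Over all genes the share called was 6.7% with DESeq2 and 17.5% with the compared libraries alone. It ran from 1.81% to 8.64% when libraries were dropped (8.64% without DTC replicate 1). The cause was not tested. Summing copies, an alternative chosen after seeing the data, moved HNRNPA1 in DTEC against untreated WT from 0.000198 to -0.000635, and HNRNPH2 there from 0.25 to 0.30 (edgeR adjusted p 0.03).

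Replicate numbers were shared between groups without any label that pairs them. Deviations of same-numbered libraries correlated at -0.03 to 0.179, over 0.1 in 4 of 18 pairs. Those of differently numbered libraries correlated at -0.187 to 0.118, over 0.1 in 2 of 36 pairs. The same-numbered correlations were weak but reached higher, so whether the numbers pair the samples is not settled. With the replicate block, 39, 32, 36 and 1 of the 43 genes were called in DTC, DTEC, DTEC against DTC and KO. Over all genes the shares called were 68.8%, 54.1%, 56.9% and 5.18%. The added calls were HNRNPH2 in DTEC and SRSF2 in DTEC against DTC, and no call was lost.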

Other observations

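Among the regulators outside the SR and hnRNP families, the 3 muscleblind genes parted in direction, and they and NOVA1 are named here after their values were seen. MBNL1 was at 217, 198 and 201 CPM in untreated WT, 98.0, 67.4 and 66.1 in DTC and 138, 153 and 143 in DTEC, and fell by 1.41 and 0.50 on the log2 scale (edgeR adjusted p 4.27e-07 and 0.00546). MBNL2 was at 100.4, 89.4 and 97.1 CPM in untreated WT, 182, 115 and 120 in DTC and 234, 217 and 162 in DTEC, and rose by 0.54 and 1.09 (edgeR adjusted p 0.0109 and 9.65e-05). MBNL3 was at 51.9, 50.3 and 53.3 CPM in untreated WT, 29.7, 19.7 and 17.2 in DTC and 45.4, 48.2 and 41.9 in DTEC, and fell by 1.22 in DTC (edgeR adjusted p 9.86e-06), while its DTEC value of -0.20 did not pass (adjusted p 0.301). NOVA1, a regulator known from neurons, stayed scarce and rose at both times, from 2.15, 1.99 and 2.11 CPM in untreated WT to 4.77, 3.44 and 4.52 in DTC and between 12.5 and 13.8 in DTEC, by 1.02 and 2.65 on the log2 scale (edgeR adjusted p 0.000119 and 4.4e-08). None of the 4 was called in KO by edgeR, with adjusted p of 0.68 for MBNL1, 0.821 for MBNL2, 0.946 for MBNL3 and 0.33 for NOVA1, although the KO libraries of NOVA1 all lay above untreated WT.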
